A study of Mus musculus with 95 samples.

Results

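Neuropeptides and the proteins of the granules that store them were followed through 10 genes of mouse cerebral cortex: Nts, Trh, Tac2, Crh, Adcyap1, Scg2, Chga, Chgb, Vgf and Pcsk1. They were chosen by name with earlier results of these data known, and each symbol matched 1 row of the 39179 gene rows. The study measured messenger RNA in C57BL/6 knock-in mice, in which a CAG repeat of set length replaces the normal repeat of the mouse huntingtin gene. All knock-in mice were heterozygous, and the lines are named for repeats of 20, 50, 92 and 140 (Q20, Q50, Q92 and Q140). Both sexes were taken at 6 and at 10 months, which gave 95 libraries. Each line had 8 libraries at each age, 4 female and 4 male, except Q140 at 10 months with 4 female and 3 male. Wild types also came in 2 groups of 8 at each age, 1 that shared cages with Q20 mice and 1 that shared cages with Q50 mice. Q92 and Q140 mice were caged with their own line, and wild types from such cages were not analysed here. In all comparisons of Q92 or Q140 mice with wild types, line and cage therefore cannot be told apart. Library names give line, age, sex and replicate, with WTwithQ20 and WTwithQ50 for the wild types by cage. The reference for Q20 and for Q50 mice was the wild-type group from the same cages. For Q92 and Q140 mice it was the average of the 2 wild-type groups. Comparisons of 1 age therefore share control libraries. The labels number the libraries within a group and do not say whether 1 animal gave 1 library. The p-values therefore reflect the scatter among libraries, which may be technical.

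Neuropeptides are cut from larger precursors inside dense-core secretory granules and are released when a neuron fires. Granins fill these granules and are themselves cut into peptides, and prohormone convertases make the first cuts. In cortex most peptide precursors are made by sparse interneurons or by subsets of projection neurons, while granins are made by most neurons. Nearby regions such as the striatum, the basal forebrain, the olfactory bulb and the hypothalamus hold neurons that make several of the same peptides at higher levels. Loss of peptide messages from striatal neurons is a well-known feature of Huntington's disease models.

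Libraries held 30.3 M to 41.1 M counts (M, mega). Mitochondrial genes took 9.1% to 14.7% of the counts, with 2 libraries above 13%, Q50_6mo_Female replicate 4 and Q92_6mo_Male replicate 3. The 5 markers that define cortical excitatory neurons were present in every library, with Slc17a7, the vesicular glutamate transporter gene, between 254 and 403 FPKM (reads per length and depth). Markers of some neighbouring regions varied between groups. The mean log2 CPM (counts per M, scaled between libraries) of 6 basal forebrain cholinergic genes in the table, of 7 listed, was 1.55 ± 0.34 (SD, n = 8) and 0.64 ± 0.55 in the 6-month wild types caged with Q20 and Q50 mice. It was -2.36 ± 0.45 in 6-month Q92 mice, -2.04 ± 0.75 in 6-month Q140 mice and -2.54 ± 0.34 in the 10-month wild types caged with Q20 mice. Of these genes Lhx8 was at 0 in 14 libraries. The 10 striatal projection neuron markers stood at 5.37 ± 0.30 and 4.76 ± 0.28 in those 6-month wild types, and at 3.66 ± 0.21, 3.72 ± 0.33 and 3.59 ± 0.25 in the same 3 low groups. Group means of the 6 thalamus markers lay closer together, from 3.95 to 4.31, as did those of the 5 hippocampus markers, from 1.28 to 1.78. The 5 cortical excitatory markers stood at 6.32 ± 0.06 and 6.39 ± 0.13 in those 6-month wild types. They stood at 6.61 ± 0.06, 6.50 ± 0.10 and 6.52 ± 0.04 in the 3 low groups. In whole tissue, fewer cells of a type, less RNA per cell and a smaller share of neighbouring tissue in the sample cannot be told apart.

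Promoters are shown because several of these genes are textbook targets of the cyclic AMP pathway, whose CREB factors bind the palindrome TGACGTCA. RefSeq promoters (GRCm38.p6, 250 bases before to 50 after the start of the gene) were found for 8 of the 10 genes. The full palindrome was present in Scg2 (chr1:79439977-79440276, minus strand), Chgb (chr2:132781392-132781691, plus strand) and Pcsk1 (chr13:75089607-75089906, plus strand), and in 1.79% of 32851 mouse promoters of the same length. The short motif TGACG, or CGTCA on the other strand, was present in 20.8% of them, a share that includes the full palindromes. The short motif alone was found in Nts (chr10:102490369-102490668, minus strand), Trh (chr6:92244601-92244900, minus strand), Chga and Adcyap1, and neither motif in Tac2. Capitals mark the palindrome and the short motifs.
Scg2 is a granin gene that varied with Nts and Trh over the libraries, and its palindrome begins 68 bases before the start of the gene.
Scg2: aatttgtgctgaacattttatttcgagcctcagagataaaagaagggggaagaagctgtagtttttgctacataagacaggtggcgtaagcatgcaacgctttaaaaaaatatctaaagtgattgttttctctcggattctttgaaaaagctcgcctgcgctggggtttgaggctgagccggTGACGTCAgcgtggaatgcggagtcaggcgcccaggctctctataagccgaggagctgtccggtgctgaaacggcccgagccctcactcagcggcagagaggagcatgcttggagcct
Chgb is the granin gene with the smallest spread, and its palindrome begins 72 bases before the start.
Chgb: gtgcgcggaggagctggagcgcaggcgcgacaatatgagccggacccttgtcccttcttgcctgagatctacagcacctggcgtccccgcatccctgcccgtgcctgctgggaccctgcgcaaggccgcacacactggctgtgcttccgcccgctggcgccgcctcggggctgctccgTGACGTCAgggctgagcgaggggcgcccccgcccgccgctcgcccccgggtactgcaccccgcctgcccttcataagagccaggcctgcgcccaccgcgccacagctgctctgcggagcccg
Pcsk1 is the convertase gene, with the palindrome 78 bases before the start and a short motif 50 bases before it.
Pcsk1: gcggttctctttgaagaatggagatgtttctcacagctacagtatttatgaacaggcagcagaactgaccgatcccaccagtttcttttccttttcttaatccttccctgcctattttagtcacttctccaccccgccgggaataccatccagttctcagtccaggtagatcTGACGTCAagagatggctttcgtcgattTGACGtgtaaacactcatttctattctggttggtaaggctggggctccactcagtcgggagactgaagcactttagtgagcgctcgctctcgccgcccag
Nts, the gene with the largest fall in the lines, has 1 short motif, 166 bases before the start.
Nts: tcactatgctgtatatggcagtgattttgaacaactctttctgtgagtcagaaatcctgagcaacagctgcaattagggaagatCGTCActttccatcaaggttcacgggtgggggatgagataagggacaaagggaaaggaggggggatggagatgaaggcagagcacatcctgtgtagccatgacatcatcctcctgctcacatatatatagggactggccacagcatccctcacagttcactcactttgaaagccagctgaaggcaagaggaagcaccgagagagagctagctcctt
Trh, the gene with the widest range, has 1 short motif, 96 bases before the start.
Trh: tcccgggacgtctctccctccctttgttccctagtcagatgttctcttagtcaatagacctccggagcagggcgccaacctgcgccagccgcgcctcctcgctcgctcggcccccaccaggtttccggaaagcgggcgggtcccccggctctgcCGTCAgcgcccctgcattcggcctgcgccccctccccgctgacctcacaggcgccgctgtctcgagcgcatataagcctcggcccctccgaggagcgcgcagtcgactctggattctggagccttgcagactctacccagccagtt
These matches describe the letters of a window and say nothing of binding.

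Granin genes were the most abundant of the 10 per transcript length. The median over 95 libraries was 141 FPKM for Chgb, which encodes chromogranin B, and 72.7 FPKM for Scg2, which encodes secretogranin II, the source of the peptide secretoneurin. It was 55.7 FPKM for Chga, the chromogranin A gene, and 45.8 FPKM for Vgf, a neurotrophin-inducible granule protein and peptide precursor. Chgb exceeded Scg2 in 95 of 95 libraries and Chga exceeded Vgf in 88, so the order of the granins held in nearly every library. Pcsk1, which encodes prohormone convertase PC1/3, followed at 10.1 FPKM and exceeded Tac2 in 71 of 95 libraries. The peptide precursor genes had lower medians, with 7.81 FPKM for Tac2, which encodes the precursor of neurokinin B in mice, and 6.38 FPKM for Adcyap1, the PACAP gene. Crh, which encodes corticotropin-releasing hormone, stood at 2.78 FPKM, Nts, the neurotensin precursor gene, at 2.39 FPKM, and Trh, the thyrotropin-releasing hormone gene, at 2.30 FPKM. The last 3 were not ordered: Crh exceeded Nts in 51 of 95 libraries and Nts exceeded Trh in 54.

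**Figure D1:**
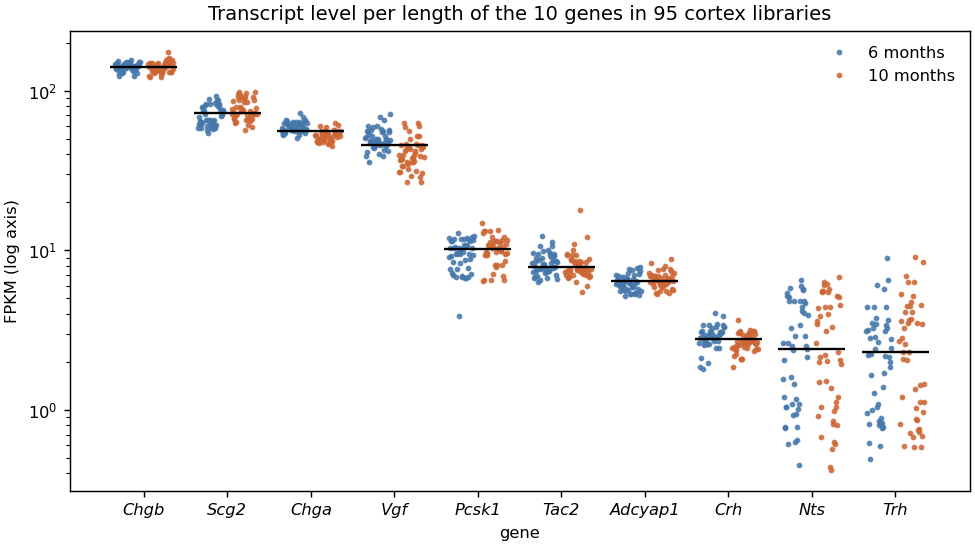
Level per transcript length (FPKM, log axis) of each of the 10 genes in 95 libraries, 1 point per library, coloured by age, with a black bar at the median. Nts and Trh spread over more than a decade, while Chgb stays near its median of 141 FPKM.

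The genes also differed in spread. Between its lowest and highest library Trh varied 18.7-fold in CPM and Nts 15.4-fold, against 1.45-fold for Chgb and 1.57-fold for Chga. Pcsk1 varied 3.70-fold, Tac2 3.24-fold, Vgf 2.69-fold, Crh 2.27-fold, Scg2 1.81-fold and Adcyap1 1.69-fold. Within groups of line, age and sex, the SD of log2 CPM was 0.96 for Trh and 0.78 for Nts, larger than that of 98% and 97% of the genes tested, whose median was 0.14. For Chgb it was 0.078, larger than that of 16.9%. The raw count of Nts ran from 16 to 283 per library and that of Trh from 22 to 430.

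At 6 months Nts was lowest in Q92 mice. The 16 wild-type libraries had a lowest, median and highest Nts level of 2.52, 4.99 and 7.59 CPM. In Q92 mice the 8 libraries had 0.53, 1.02 and 1.38 CPM, all below every wild type. The share of all genes without overlap was not counted, here or in the later comparisons. Q140 mice had 0.90, 1.32 and 3.05 CPM, and 7 of 8 lay below the wild-type range. The groups of Q20 mice (0.72, 5.81 and 6.72 CPM) and Q50 mice (1.11, 2.86 and 5.53 CPM) overlapped their wild types, whose medians were 6.13 and 4.05 CPM. Nts fell in Q92 mice by 2.28 ± 0.31 (SE) on the log2 scale (adjusted p = 3.18e-06, lower than the wild-type median in 8 of 8 libraries). In Q140 mice it fell by 1.60 ± 0.29 (adjusted p = 0.000273, 8 of 8 libraries). The values were -0.38 ± 0.26 in Q20 and -0.50 ± 0.29 in Q50 mice, and neither passed the test.

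Trh was low in every Q92 library at 6 months. The 16 wild types had a lowest, median and highest level of 1.92, 4.07 and 11.9 CPM. The Q92 libraries had 0.83, 1.13 and 1.25 CPM, again with no overlap, and a spread (SD 0.12 CPM) far below the wild-type SD of 2.71 CPM. Trh fell in Q92 mice by 2.09 ± 0.40 (adjusted p = 0.000388, 8 of 8 libraries). In males alone this value was -1.78 and the call was lost (adjusted p = 0.0628). Q140 mice were split, with 0.68, 2.19 and 6.06 CPM and 4 of 8 libraries below the wild-type range, and the difference of -0.83 ± 0.34 did not pass the test (adjusted p = 0.194). The differences were -0.31 ± 0.37 in Q20 and -0.33 ± 0.35 in Q50 mice.

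Scg2 was the granin gene that moved with these peptides. Its wild-type levels were 152, 193 and 227 CPM (lowest, median and highest of 16), against 144, 152 and 164 CPM in Q92 and 144, 156 and 169 CPM in Q140 mice. The ranges overlapped, since 1 wild-type library lay at 152 CPM, but every Q92 and Q140 library was below the wild-type median. Scg2 fell by 0.34 ± 0.057 in Q92 mice (adjusted p = 5.09e-05) and by 0.32 ± 0.057 in Q140 mice (adjusted p = 0.000233). In Q140 females alone neither Scg2 (-0.32, adjusted p = 0.112) nor Nts (-1.30, adjusted p = 0.354) was called. Scg2 was -0.105 ± 0.065 in Q20 and -0.15 ± 0.066 in Q50 mice, which was not called.

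**Figure D2:**
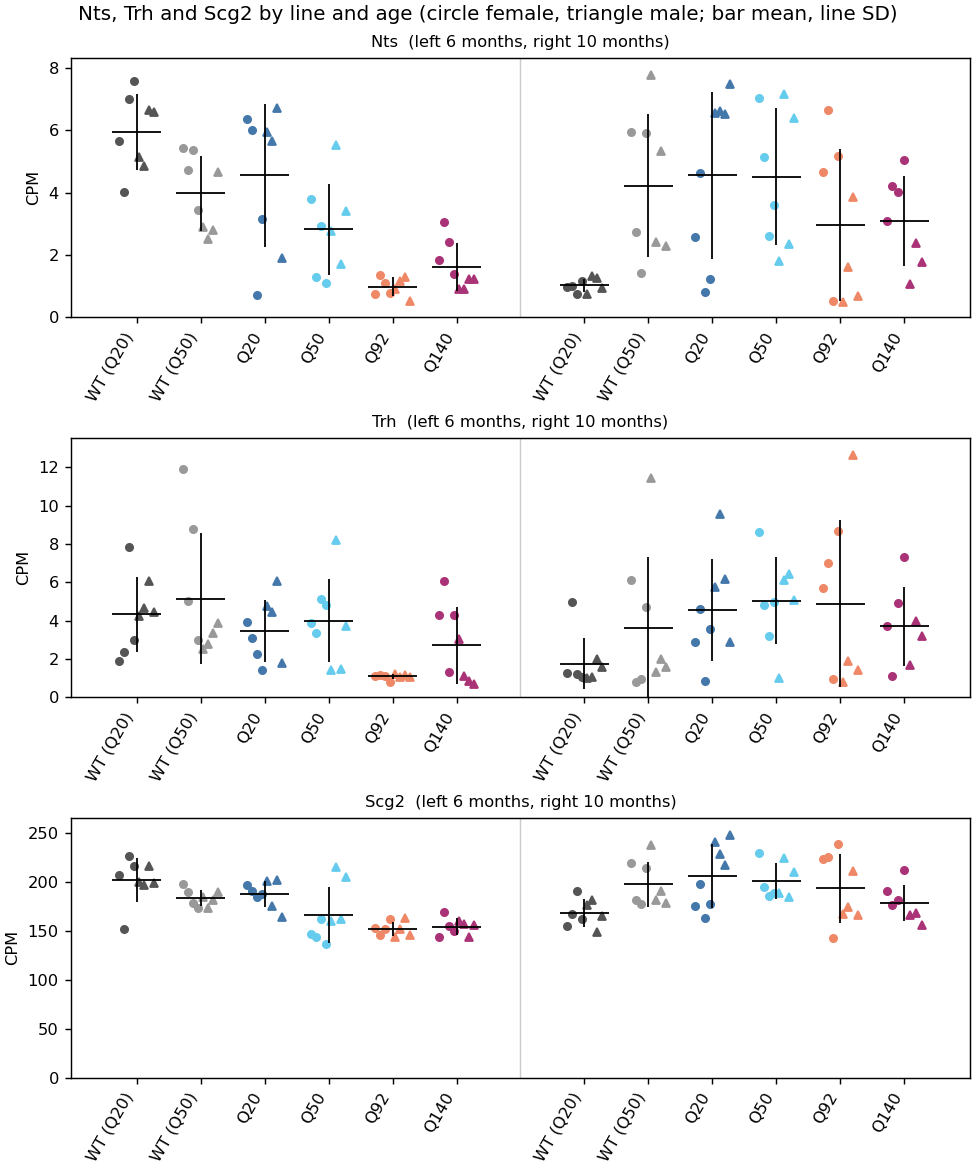
CPM of Nts, Trh and Scg2 in each library by line, with 6 months on the left and 10 months on the right (circles female, triangles male, bar mean, vertical line SD; WT (Q20) and WT (Q50) are the wild types caged with those lines). The 6-month Q92 points of Nts and Trh lie together below the wild types, and the 10-month wild types caged with Q20 mice are low for all 3 genes.

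Counted together, 3 of the 10 genes fell and none rose in Q92 mice at 6 months, where 7.83% of 17716 genes were called. In Q140 mice 2 fell and none rose, against 3.52% of all genes. The median log2 fold change of the 10 was -0.11 in Q92 and -0.13 in Q140 mice, beside 0.00 over all genes. No member was called in Q20 mice (0.0169% of all genes called; 0 members at an unadjusted p below 0.05) or in Q50 mice (0.0226%; 1 member, Scg2). DESeq2 and limma voom called none in either line. The remaining 7 genes of Q92 mice had differences between -0.15 and 0.09, with Chgb at 0.09 ± 0.031 (adjusted p = 0.0721; DESeq2 called it, 0.0459). In Q140 mice the uncalled genes nearest to the threshold were Crh at -0.29 ± 0.092 (adjusted p = 0.0692), with 3 of 8 libraries below the wild-type range, and Chga at -0.12 ± 0.040 (adjusted p = 0.0934). Chga was called with limma voom (0.0375) and without Q140_6mo_Male replicate 2 (0.029), WTwithQ20_6mo_Female replicate 2 (0.037) or WTwithQ50_6mo_Female replicate 4 (0.0461). Crh was called with DESeq2 (adjusted p = 0.0442), limma voom (0.0150), both FPKM settings (0.0401 and 0.0416) and without the libraries over 13% mitochondrial (0.0302).

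**Figure D3:**
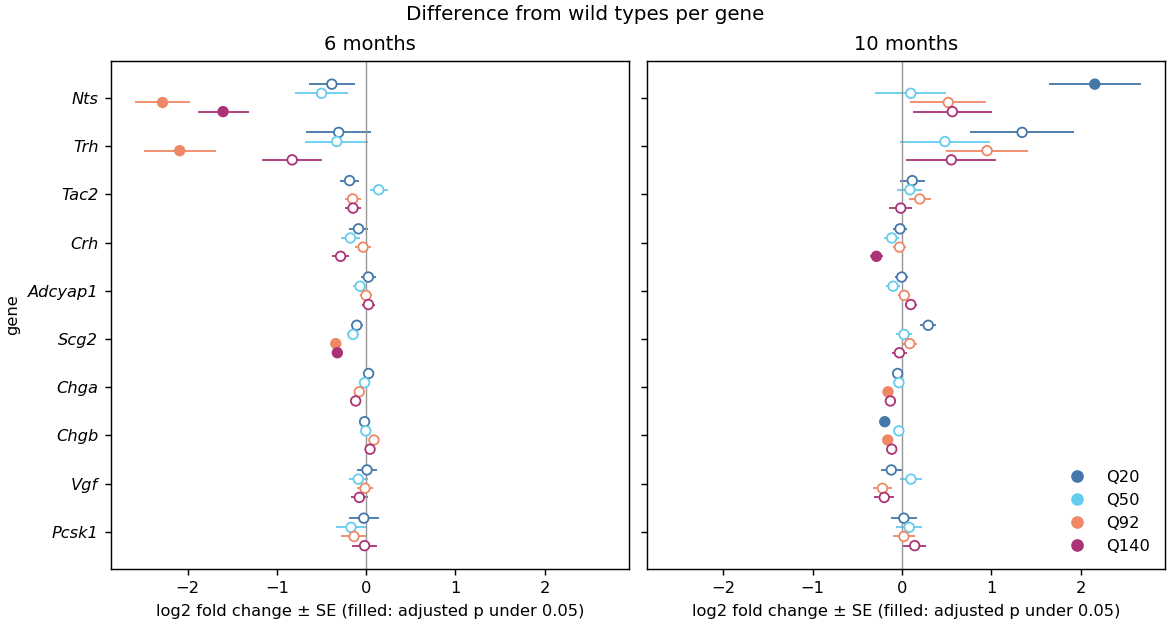
Log2 fold change ± SE of each gene in each knock-in line against its wild types, at 6 months (left) and 10 months (right), with filled points where the adjusted p was below 0.05. Nts and Trh extend to -2.28 and -2.09 at 6 months, and the Q20 value of Nts at 10 months is 2.16.

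Across the 4 knock-in lines at 6 months, 3 members had a called trend with repeat length, all downward, against 1.78% of all 17504 genes. Each line is a cohort of its own, so repeat length and cohort cannot be told apart. The units of the trend fit were libraries and not lines, so its p-values leave out differences between cohorts. Per 100 repeats Nts fell by 1.53 ± 0.34 (adjusted p = 0.00922), Scg2 by 0.23 ± 0.054 (adjusted p = 0.0139) and Chga by 0.12 ± 0.030 (adjusted p = 0.0196). The line means of Nts were 4.56 ± 2.30, 2.82 ± 1.47, 0.99 ± 0.30 and 1.62 ± 0.77 CPM (SD, n = 8) from Q20 to Q140, so the lowest line was Q92 and not Q140. Chga means were 116 ± 5.0, 113 ± 5.5, 108 ± 7.5 and 105 ± 5.8 CPM in the same order, each neighbouring pair closer than its SDs. With the L code in the library names as a factor none of the 3 was called (adjusted p = 0.0573, 0.106 and 0.167), and in females none (0.951, 0.647 and 0.245). The Nts trend was also lost with FPKM plus 0.1 (0.0615), and the Scg2 and Chga trends in males (0.109 and 0.612). The Chga trend also ended without Q20_6mo_Female replicate 1 (adjusted p = 0.0502). At 10 months no member trend was called (0.891% of all genes, 5 members at an unadjusted p below 0.05, none with DESeq2 or limma voom), with Nts at -0.60 ± 0.38 per 100 repeats. In males alone Nts (-1.98, adjusted p = 0.0384) and Scg2 (-0.43, adjusted p = 0.00148) were called.

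The wider pathway moved in both directions at 6 months. Of 20 other neuropeptide precursor genes tested in Q92 mice 6 fell and 2 rose, and in Q140 mice 5 fell and none rose. The shares of all genes called were 7.83% and 3.52%. Penk, the enkephalin precursor gene, fell by 1.69 ± 0.17 and 1.48 ± 0.17 in the 2 lines, and Tac1, which encodes substance P, by 1.48 ± 0.17 and 1.28 ± 0.17. Pdyn, the dynorphin gene, fell by 0.55 ± 0.085 and 0.59 ± 0.086, and Cartpt, the CART peptide gene, by 0.75 ± 0.14 and 0.56 ± 0.14, the last not called without Q140_6mo_Male replicate 4 (adjusted p = 0.050). Penk, Tac1 and Pdyn are genes of striatal projection neurons. Penk and Tac1 are 2 of the 10 striatal markers whose mean was low in the same groups, and the part of those cells in these falls was not tested. In Q140 females alone these 4 genes were not called. The list medians were -0.21 and -0.22.

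Granule biogenesis and processing genes differed little. Of 20 tested, 2 rose and 1 fell in Q92 mice (7.83% of all genes called) and none was called in Q140 mice (3.52%). Pcsk2, which encodes the convertase PC2, rose by 0.15 ± 0.033 (adjusted p = 0.00154) in Q92 mice. Scg3, a granin that binds granule membranes, rose by 0.10 ± 0.028 (adjusted p = 0.0152), and Qpct, which caps peptides with pyroglutamate, fell by 0.22 ± 0.060 (adjusted p = 0.0142). Scg3 was not called without Q92_6mo_Male replicate 3 (adjusted p = 0.054) nor Qpct without Q92_6mo_Female replicate 1 (adjusted p = 0.051).

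Among 12 receptor and binding protein genes of these peptides 4 fell and 2 rose in Q92 mice (7.83% of all genes called). In Q140 mice 1 fell and 2 rose (3.52%). Tacr3, the neurokinin B receptor gene, fell by 0.98 ± 0.21 in Q92 and 0.93 ± 0.21 in Q140 mice. Crhr1, a CRH receptor gene, rose by 0.19 ± 0.045 in both lines. Trhr, a TRH receptor gene, fell by 0.67 ± 0.20 in Q92 mice (adjusted p = 0.0248), a call that ended without Q92_6mo_Female replicate 1 or 4 or Q92_6mo_Male replicate 4 (adjusted p = 0.053, 0.056 and 0.065). Crhbp, the CRH-binding protein gene, rose by 0.20 ± 0.060 (adjusted p = 0.0248), not called without Q92_6mo_Male replicate 3 (adjusted p = 0.10). Ntsr1, a neurotensin receptor gene, rose in Q140 mice by 0.21 ± 0.056 (adjusted p = 0.0200), not called without Q140_6mo_Male replicate 1, 3 or 4 (adjusted p = 0.066, 0.085 and 0.053). Against the wild types caged with Q50 mice alone, none of these 5 receptor genes was called in either line.

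Of 9 peptide-degrading enzyme genes 2 fell and 2 rose in Q92 mice (7.83% of all genes called). In Q140 mice 2 fell and 1 rose (3.52%). Mme, which encodes neprilysin, fell by 0.48 ± 0.095 and 0.45 ± 0.095, and Ece2, an endothelin-converting enzyme gene, by 0.38 ± 0.067 and 0.25 ± 0.066. Trhde, which encodes the enzyme that degrades TRH, rose by 0.18 ± 0.041 in both lines. The Ece2 call in Q140 mice ended without Q140_6mo_Male replicate 2, 3 or 4 (adjusted p = 0.051, 0.063 and 0.076). Dpp4, a dipeptidyl peptidase gene, rose by 0.20 ± 0.064 in Q92 mice (adjusted p = 0.0463), a call kept under 3 of 14 alternatives. It ended without any of 19 of 48 libraries (adjusted p of up to 0.134), which were Q92_6mo_Female replicates 2, 3 and 4, Q92_6mo_Male replicates 1, 3 and 4, WTwithQ20_6mo_Female replicates 3 and 4, WTwithQ20_6mo_Male replicates 1, 3 and 4, WTwithQ50_6mo_Female replicates 1, 2 and 3, WTwithQ50_6mo_Male replicates 1 and 4, Q140_6mo_Female and Q20_6mo_Female replicate 3, and Q50_6mo_Male replicate 1.

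At 10 months the Nts difference of neither line passed the test. Q92 mice had a lowest, median and highest level of 0.51, 2.75 and 6.65 CPM and Q140 mice of 1.075, 3.08 and 5.06 CPM (n = 7). Of the Q92 libraries 3 of 8 lay below the range of the 16 wild types, and of the Q140 libraries 0 of 7. The wild types of this age were themselves split by cage. Those caged with Q20 mice had 0.74, 1.002 and 1.33 CPM, below every one of those caged with Q50 mice (1.43, 4.04 and 7.77 CPM). Between these wild-type groups Nts differed by -2.04 ± 0.52 (adjusted p = 0.0146, lower in 8 of 8 libraries). Q20 mice (0.82, 5.58 and 7.499 CPM) were above their low wild types, and Nts rose there by 2.16 ± 0.52 (adjusted p = 0.0209, higher in 7 of 8 libraries). The values for Q50, Q92 and Q140 mice were 0.10 ± 0.40, 0.52 ± 0.43 and 0.57 ± 0.44, and none was called.

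The Q20 call rests partly on males. In females alone Nts was 1.24 (adjusted p = 1), and with the L code as a factor 2.09 (adjusted p = 0.0834). It also ended without Q20_10mo_Male replicate 1, 2 or 4 (adjusted p = 0.052, 0.051 and 0.064). Between the wild-type groups the sign was the same in both sexes, at -2.01 in females (adjusted p = 0.125) and -2.06 in males (adjusted p = 0.0648), and the call was lost with limma voom (adjusted p = 0.0545). The order of the 12 group means of Nts ran from Q92 at 6 months (0.99 CPM) and the 10-month wild types caged with Q20 mice (1.03 ± 0.22 CPM) to the 6-month wild types caged with Q20 mice (5.94 ± 1.22 CPM). Groups with means between 2.8 and 4.6 CPM had SDs of 1.2 to 2.7 CPM and were not separated from their neighbours in that order.

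Trh at 10 months had a wide range in every group, in 1 of them through a single library. Wild types caged with Q20 mice had 1.03, 1.25 and 4.96 CPM, and all but WTwithQ20_10mo_Female replicate 2 lay between 1.03 and 2.02 CPM. Those caged with Q50 mice had 0.82, 1.78 and 11.4 CPM. The knock-in medians were 4.09, 5.03, 3.80 and 3.73 CPM from Q20 to Q140, with ranges that all overlapped the wild types. Differences were 1.35 ± 0.58 (adjusted p = 0.167), 0.48 ± 0.50, 0.95 ± 0.46 (adjusted p = 0.338) and 0.55 ± 0.50, and none passed the test. Scg2 in Q20 mice was 163, 208 and 248 CPM against 149, 166 and 191 CPM, a difference of 0.30 ± 0.091 that was not called (adjusted p = 0.0516). It was called with DESeq2 (adjusted p = 0.0225), limma voom (0.0192) and in males (0.00173).

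At 10 months Chgb fell in Q20 and Q92 mice and Chga in Q92 mice. Chgb in Q20 mice lay at 357, 373 and 413 CPM against 397, 430 and 480 CPM in their wild types, with 7 of 8 libraries below the wild-type range. It fell there by 0.19 ± 0.046 (adjusted p = 0.0201). In Q92 mice Chgb (335, 372 and 391 CPM against 348, 418 and 480 CPM in 16 wild types) fell by 0.16 ± 0.040 (adjusted p = 0.0361). Chga in Q92 mice (86.8, 91.4 and 100.3 CPM against 87.0, 102.8 and 118.9 CPM) fell by 0.16 ± 0.039 (adjusted p = 0.0361). All 8 Q92 libraries were below the wild-type median for both genes, and the ranges overlapped. In Q140 mice Chga was -0.13 ± 0.041 (adjusted p = 0.120) and Chgb -0.11 ± 0.042 (adjusted p = 0.2), each below the wild-type median in 7 of 7 libraries. Vgf was -0.22 ± 0.105 in Q92 mice (adjusted p = 0.345) and -0.20 ± 0.11 in Q140 mice (adjusted p = 0.462). Against the wild types caged with Q20 mice alone these Vgf values were -0.43 and -0.41, and both were called (0.0224 and 0.0428).

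The reference matters for Chgb. The wild types caged with Q20 mice were higher than those caged with Q50 mice by 0.15 ± 0.046 (adjusted p = 0.0417), at a median of 430 against 389 CPM, and all 8 lay above that lower median. That call held in 5 of 12 alternatives, and was lost with limma voom (0.0654), both FPKM settings (0.0598 and 0.0604), no filter (0.055), the L code (0.0878) and within each sex (0.353 and 0.0806). Against the wild types caged with Q50 mice alone the Q92 values were -0.09 for Chgb (adjusted p = 0.761) and -0.16 for Chga (adjusted p = 0.305). Neither Q92 call held with the L code as a factor (0.0567 for Chgb and 0.0632 for Chga) or within 1 sex (females 0.0845 and 0.416, males 0.712 and 0.281). The Chgb call was also lost with limma voom (0.0535) and FPKM plus 1 (0.0501), and the Chga call with both FPKM settings (0.0813 and 0.081) and no filter (0.0501). Against the wild types caged with Q20 mice alone, Chgb in Q140 mice was -0.19 and called (0.0121). The cholinergic marker level was -2.54 ± 0.34 in the wild types caged with Q20 mice and 0.42 ± 1.54 in those caged with Q50 mice, and its part in these differences was not tested.

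Several of these calls depended on single libraries. The Chgb call in Q20 mice ended without Q20_10mo_Male replicate 1, 2 or 4 (adjusted p = 0.054, 0.051 and 0.057) or WTwithQ20_10mo_Male replicate 2 (0.055), and in females alone (1). The Chga call in Q92 mice ended without Q92_10mo_Female replicate 1 or 4 (0.11 and 0.083), Q92_10mo_Male replicate 2, 3 or 4 (0.068, 0.089 and 0.058), WTwithQ20_10mo_Female or WTwithQ50_10mo_Female replicate 4 (0.063 and 0.071), WTwithQ20_10mo_Male replicate 1 or 2 (0.062 and 0.053) or WTwithQ50_10mo_Male replicate 2 (0.053). The Chgb call in Q92 mice ended without Q92_10mo_Female replicate 1, 2 or 4 (0.12, 0.12 and 0.11), Q92_10mo_Male replicate 3 (0.053), WTwithQ50_10mo_Female replicate 2 or 3 (0.054 and 0.056) or WTwithQ50_10mo_Male replicate 2 or 4 (0.060 and 0.053). The Chgb call between the wild types ended without any of 9 libraries, WTwithQ20_10mo_Female replicate 1 or 3 (0.064 and 0.068), WTwithQ50_10mo_Female replicate 1 or 4 (0.10 and 0.057), WTwithQ20_10mo_Male replicate 2, 3 or 4 (0.10, 0.065 and 0.056) and WTwithQ50_10mo_Male replicate 1 or 3 (0.11 and 0.080).

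Crh was the only member called in Q140 mice at 10 months against the mean of both wild-type groups. The 16 wild types had a lowest, median and highest level of 3.02, 3.67 and 4.30 CPM. The 7 Q140 libraries had 2.43, 3.21 and 3.23 CPM, all below the wild-type median and 3 below the wild-type range. Crh fell by 0.29 ± 0.076 (adjusted p = 0.0447). The same difference at 6 months was -0.29 ± 0.092 (adjusted p = 0.0692), and the change between ages was -0.002 ± 0.12 (adjusted p = 0.998). The 10-month call was lost in 5 of 13 alternatives, with the replicate block among them (adjusted p = 0.0579), and against the wild types caged with Q50 mice alone it was -0.20 (adjusted p = 0.521). It ended without any of 22 of 47 libraries, with an adjusted p of up to 0.131. These were all 4 female and all 3 male Q140 libraries, Q20_10mo_Female replicate 2, Q50_10mo_Male replicates 3 and 4, Q92_10mo_Female replicate 2, Q92_10mo_Male replicate 4, WTwithQ20_10mo_Female replicates 1, 3 and 4, WTwithQ50_10mo_Female replicates 2, 3 and 4, WTwithQ20_10mo_Male replicates 2 and 3, and WTwithQ50_10mo_Male replicates 2 and 3.

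Counted together, 2 members were called in Q20 mice (1 rose, 1 fell; 4.35% of 17813 genes were called), 2 fell in Q92 mice (0.853%) and 1 fell in Q140 mice (1.20%). None was called in Q50 mice (0.0561%), where no member had an unadjusted p below 0.05 and DESeq2 and limma voom called none. Between the wild-type groups 3 members were called, against 7.03% of all genes. The third of them was Vgf, at 81.4, 128 and 161 CPM in the wild types caged with Q20 mice against 68.5, 99.9 and 118 CPM in those caged with Q50 mice, a difference of 0.42 ± 0.12 (adjusted p = 0.0271). The Vgf call was lost with the L code as a factor (0.0622), within each sex (0.4 and 0.0553), and without WTwithQ20_10mo_Female replicate 4 (0.067), WTwithQ50_10mo_Female replicate 1 or 3 (0.065 and 0.059), WTwithQ20_10mo_Male replicate 2 or 3 (0.059 and 0.056) or WTwithQ50_10mo_Male replicate 1 (0.076). At 6 months no member was called between these groups (0.0903% of all genes, 2 members at an unadjusted p below 0.05, Nts and Scg2, none with DESeq2 or limma voom).

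**Figure D4:**
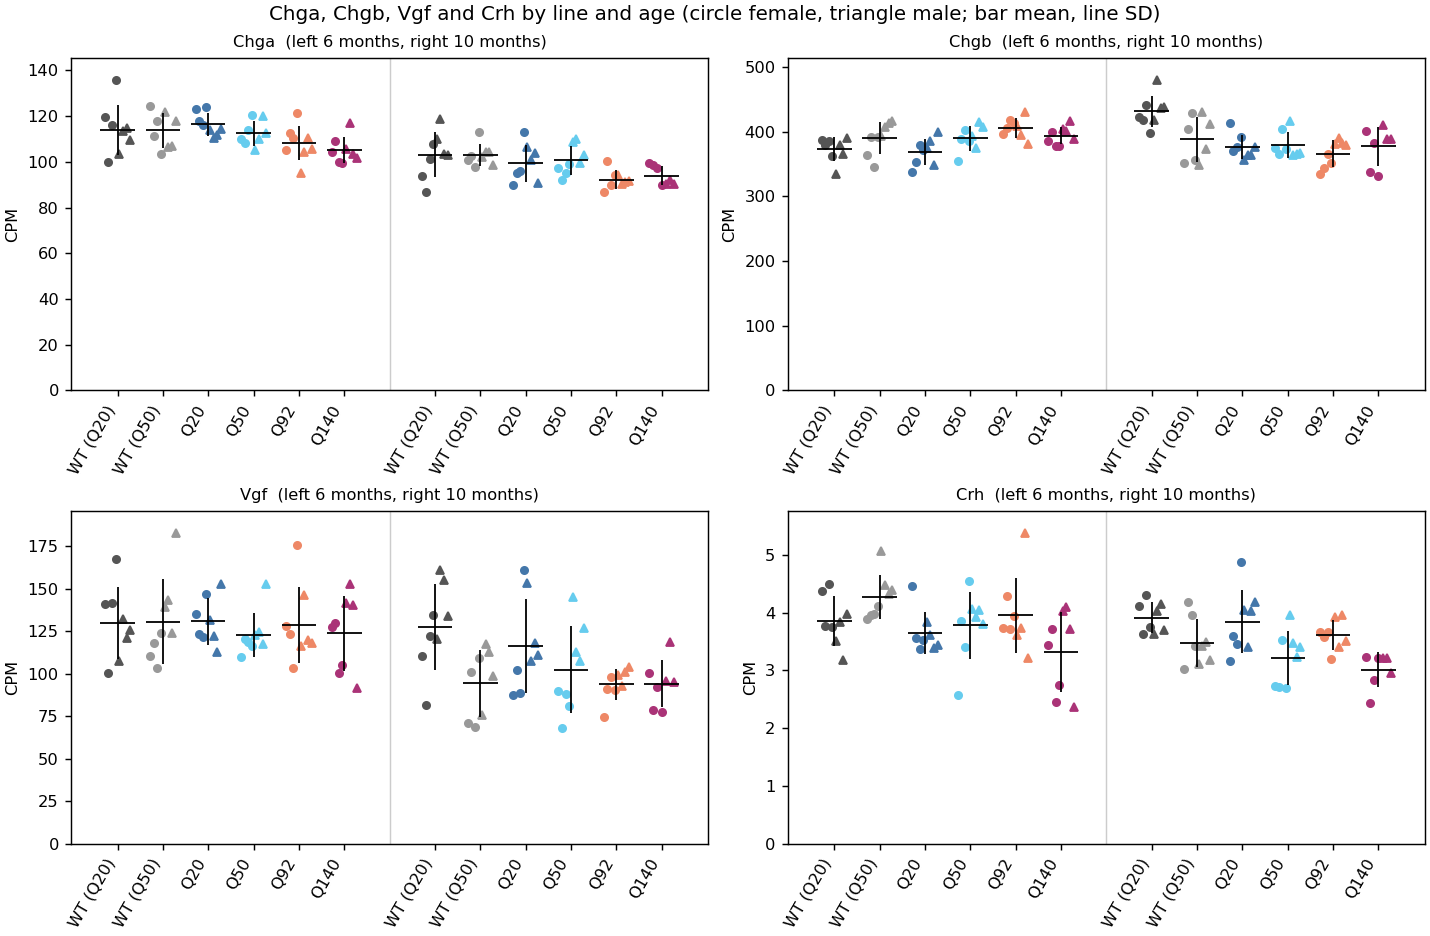
CPM of Chga, Chgb, Vgf and Crh in each library by line, 6 months on the left of each panel and 10 months on the right (circles female, triangles male, bar mean, vertical line SD). Chgb is highest in the 10-month wild types caged with Q20 mice, at a mean of 431 CPM, and Vgf is more scattered than the other granins.

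The other lists were counted at 10 months too. Of 20 other precursor genes 3 rose and 2 fell in Q20 mice (4.35% of all genes called). In the wild types caged with Q20 mice 2 were higher and 5 lower than in those caged with Q50 mice (7.03%). Penk (1.499 ± 0.30 in Q20 mice, -1.32 ± 0.29 between the wild types) and Tac1 (1.51 ± 0.32 and -1.34 ± 0.32) had opposite signs in these comparisons, which share the wild types caged with Q20 mice. Vip, a gene of cortical interneurons, fell by 0.33 ± 0.066 in Q20 mice and was higher by 0.29 ± 0.066 between the wild types. Cck, a peptide gene of interneurons and pyramidal cells, fell by 0.28 ± 0.075 and was higher by 0.28 ± 0.075. The Cck call in Q20 mice ended without Q20_10mo_Female replicate 2 (adjusted p = 0.054), any Q20_10mo_Male library (0.066 to 0.087), WTwithQ20_10mo_Female replicate 4 (0.054) or WTwithQ20_10mo_Male replicate 2 (0.085). In Q92 and Q140 mice none and 2 of the 20 were called (0.853% and 1.20% of all genes). Among 12 receptor genes Crhr1 fell by 0.245 ± 0.060 in Q20 mice and was higher by 0.205 ± 0.060 between the wild types, and Tacr3 rose in Q20 mice by 1.42 ± 0.41. The Crhr1 call in Q20 mice ended without Q20_10mo_Male replicate 1, 2 or 4 or WTwithQ20_10mo_Female replicate 4 (adjusted p of up to 0.068), and that between the wild types without WTwithQ20_10mo_Female replicate 1 or 4, WTwithQ50_10mo_Female replicate 1 or WTwithQ20_10mo_Male replicate 3 (up to 0.0801). The Tacr3 call ended without Q20_10mo_Female replicate 2, any Q20_10mo_Male or WTwithQ20_10mo_Male library, or WTwithQ20_10mo_Female replicate 1, 3 or 4 (up to 0.12). None of 20 granule and processing genes was called between the wild types (7.03% of all genes called). The same held in Q50, Q92 and Q140 mice (0.0561%, 0.853% and 1.20% of all genes). In Q20 mice 1 fell, beside 4.35% of all genes called. This gene was Scg5, which encodes the PC2 chaperone 7B2, and it fell by 0.18 ± 0.040 (adjusted p = 0.0130).

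Age was compared in wild types, where 5 members were called against 23.7% of 17753 genes. The libraries of each age form their own set, so age and cohort cannot be told apart. Nts fell by 1.22 ± 0.28 (adjusted p = 0.000724), from 2.52, 4.99 and 7.59 CPM (lowest, median and highest of 16) at 6 months to 0.74, 1.38 and 7.77 CPM at 10 months. The 10-month range includes the 6-month range, because the wild types caged with Q50 mice kept a median of 4.04 CPM. Trh fell by 0.88 ± 0.33 (adjusted p = 0.0455), from a median of 4.07 to 1.46 CPM. Chga fell by 0.145 ± 0.032 (adjusted p = 0.000481), from 114 ± 9.2 to 103 ± 7.5 CPM (SD, n = 16). Vgf fell by 0.25 ± 0.082 (adjusted p = 0.0171), from 130 ± 22 to 111 ± 28 CPM, and Chgb rose by 0.10 ± 0.029 (adjusted p = 0.00678), from 382 ± 23 to 410 ± 37 CPM.

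With the L code as a factor within each age, none of the 5 was called (adjusted p = 0.173 for Nts, 0.302 for Chga, 0.549 for Chgb, 0.178 for Vgf and 0.255 for Trh), and the log2 values of Nts and Trh were -1.78. With the replicate block Vgf (adjusted p = 0.108) and Trh (0.257) were lost. These fits take the age difference at code L1, or at replicate 1, of each age and not over all libraries. They therefore cannot show whether the age calls depend on the code or the block. In males alone none was called, and in females Nts and Chga were. The Trh call ended without any of 19 libraries, all wild types, with an adjusted p of up to 0.106. These were WTwithQ20_6mo_Female replicate 3, all WTwithQ20_6mo_Male libraries, WTwithQ20_10mo_Female replicates 1, 3 and 4, all WTwithQ20_10mo_Male libraries, WTwithQ50_6mo_Female replicates 1 and 3, WTwithQ50_10mo_Female replicates 2 and 3, and WTwithQ50_10mo_Male replicates 2, 3 and 4.

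Among the other lists in wild types, 8 granule and processing genes rose with age and 2 fell, of 20, where 23.7% of all genes were called. Pcsk1n, which encodes proSAAS, an inhibitor of PC1/3, fell by 1.05 ± 0.19 (adjusted p = 1.91e-05). Cadps and Cadps2, which prime granules for release, rose by 0.12 ± 0.024 and 0.16 ± 0.037, and Pam, which amidates peptides, rose by 0.10 ± 0.021. Of 20 precursor genes 6 fell and 1 rose, with Sst, the somatostatin gene, at -0.28 ± 0.057, Penk at -0.86 ± 0.17, Tac1 at -0.79 ± 0.18 and Vip at 0.26 ± 0.047. Receptor genes moved both ways, 2 of 12 each. Sort1, which encodes the neurotensin receptor sortilin, rose by 0.12 ± 0.034 and Crhbp by 0.15 ± 0.047, while Tacr3 fell by 0.71 ± 0.23. Vipr2, which encodes a receptor for VIP and PACAP, fell by 1.16 ± 0.39, a call that ended without WTwithQ50_6mo_Female replicate 1 (adjusted p = 0.090) or WTwithQ20_6mo_Male replicate 1 (0.053). Of 9 degrading enzyme genes 2 rose (Trhde by 0.19 ± 0.042 and Dpp4 by 0.20 ± 0.062) and 2 fell (Thop1 by 0.23 ± 0.042 and Ece2 by 0.25 ± 0.065). With the L code as a factor Vip was called and the other genes named here were not, but that fit compares the ages at 1 L code.

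The difference of Q92 mice from wild types changed between the ages for 4 members, against 10.0% of all genes. For Nts it went from -2.28 at 6 months to 0.52 at 10 months, a change of 2.80 ± 0.55 (adjusted p = 0.000377). The 10-month Nts means were 1.03 ± 0.22 and 4.23 ± 2.29 CPM (SD) in the wild types caged with Q20 and Q50 mice. Q92 mice lay between these at 2.96 ± 2.43 CPM, so the 10-month value depends on the reference. The change between ages was not tested against either wild-type group alone. For Trh the change was 3.04 ± 0.64 (adjusted p = 0.000717) and for Scg2 0.42 ± 0.098 (adjusted p = 0.00226), both upward, while for Chgb it was -0.25 ± 0.050 (adjusted p = 0.000417). In males alone none of the 4 was called (adjusted p = 0.360, 0.290, 0.216 and 0.293, with log2 values of 1.73, 2.58, 0.33 and -0.18). In Q140 mice 1 member was called, against 1.84% of all genes, Nts with a change of 2.17 ± 0.53 (adjusted p = 0.0182). That call ended with the L code as a factor (0.0738), within each sex (0.138 and 0.454) and without Q140_10mo_Female replicate 4 (0.0958).

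The cage difference of the wild types (Q20 cages minus Q50 cages) also moved between ages for 3 members, against 5.34% of all genes. For Nts it went from 0.57 ± 0.26 to -2.04 ± 0.52, a change of -2.61 ± 0.56 (adjusted p = 0.00215), for Scg2 the change was -0.37 ± 0.11 (adjusted p = 0.0378) and for Chgb 0.22 ± 0.058 (adjusted p = 0.0143). In females alone none of the 3 was called (0.201, 0.420 and 0.744). The Scg2 value was also not called with the L code as a factor (0.1), with no filter (0.0593), in males (0.0666), or without WTwithQ20_6mo_Female replicate 1 or 3 (0.052 and 0.066), WTwithQ20_10mo_Female replicate 1 or 4 (0.056 and 0.054), WTwithQ50_10mo_Female replicate 1 (0.064), WTwithQ20_6mo_Male or WTwithQ20_10mo_Male replicate 3 (0.052 and 0.058), or WTwithQ50_6mo_Male or WTwithQ50_10mo_Male replicate 1 (0.051 and 0.089).

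Sex made little difference. At 6 months no member was called between females and males (2.37% of all genes, 1 member, Chgb, at an unadjusted p below 0.05, none with DESeq2 or limma voom). At 10 months Vgf alone was called (3.49% of all genes): it was lower in females by 0.28 ± 0.071 (adjusted p = 0.0166), at 67.9, 89.9 and 161 CPM in 24 females against 75.9, 113 and 161 CPM in 23 males, with wide overlap. With the L code as a factor the value was -0.22 and not called (adjusted p = 0.211). Ntsr1 was higher in females at both ages, by 0.25 ± 0.038 at 6 months (adjusted p = 2.95e-05) and by 0.20 ± 0.045 at 10 months (adjusted p = 0.00747). Nln, which encodes the neurotensin-cutting enzyme neurolysin, was higher in females at 10 months by 0.12 ± 0.024 (adjusted p = 0.00209), and Furin, a convertase gene, was lower by 0.14 ± 0.038 (adjusted p = 0.0257). At 10 months Ntsr1, Nln and Furin were not called with the L code as a factor.

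Tac2, Adcyap1 and Pcsk1 were called in none of the 18 comparisons with edgeR. The group means of Tac2 lay between 5.23 ± 0.34 and 6.27 ± 0.84 CPM, those of Adcyap1 between 12.5 ± 1.4 and 14.8 ± 1.3 CPM, and those of Pcsk1 between 23.96 ± 5.4 and 28.97 ± 9.2 CPM. Their smallest unadjusted p-values were 0.0250 for Tac2 (change of the Q92 difference with age, 0.35 ± 0.15, adjusted p = 0.138) and 0.0132 for Adcyap1 (trend with repeats at 10 months, 0.145 ± 0.056, adjusted p = 0.233). Pcsk1 varied within groups, with an SD of log2 CPM of 0.34. Its correlation with the mitochondrial share of the library was -0.48 (Pearson, two-sided permutation p = 1e-05) and -0.33 (Spearman, permutation p = 0.00092) over 95 libraries, -0.57 within groups and -0.32 without the 2 farthest libraries.

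Nts, Trh and Scg2 varied with markers of several neighbouring regions. Over 95 libraries the correlation of Nts with the mean level of the 6 basal forebrain cholinergic genes was 0.93 (Pearson) and 0.92 (Spearman), and 0.86 within groups of line, age and sex. Nts also followed the 10 striatal markers (0.85 and 0.85, 0.67 within groups) and the 8 hypothalamus markers (0.79 and 0.81, 0.61 within groups). Scg2 followed the cholinergic markers (0.78 and 0.80, 0.65 within groups), and Chgb ran against the cholinergic markers (-0.66 and -0.69, -0.57 within groups). Trh followed the 8 hypothalamus markers (0.72 and 0.74, 0.64 within groups), the 6 olfactory bulb markers (0.65 and 0.68, 0.63 within groups) and the cholinergic markers (0.66 and 0.65, 0.58 within groups). Hypothalamic Hcrt was at 0 in 21 libraries and Sim1 in 18, and the olfactory bulb gene Eomes in 7. Chga followed the 7 interneuron markers (0.66 and 0.66, 0.63 within groups). Markers of cortical excitatory neurons ran against Nts (-0.78 and -0.80, -0.74 within groups), Trh (-0.75 and -0.76, -0.74 within groups) and Scg2 (-0.80 and -0.80, -0.69 within groups). Each pooled correlation in this paragraph had a two-sided permutation p of 1e-05 by both measures, the smallest that 100000 resamples can give, and 3.89e-05 (Pearson) and 3.98e-05 (Spearman) adjusted over 175 relations. Leaving out the 2 libraries farthest from the marker median gave 0.93, 0.85, 0.79, 0.79, -0.66, 0.70, 0.62, 0.68, 0.62, -0.78, -0.75 and -0.80 in the order given. Permutations here and elsewhere shuffled all 95 libraries across groups, so these p-values also reflect differences between groups. The correlations within groups have no p-value. The marker lists and members come from the same libraries, and the part of these markers in the results was not tested.

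**Figure D5:**
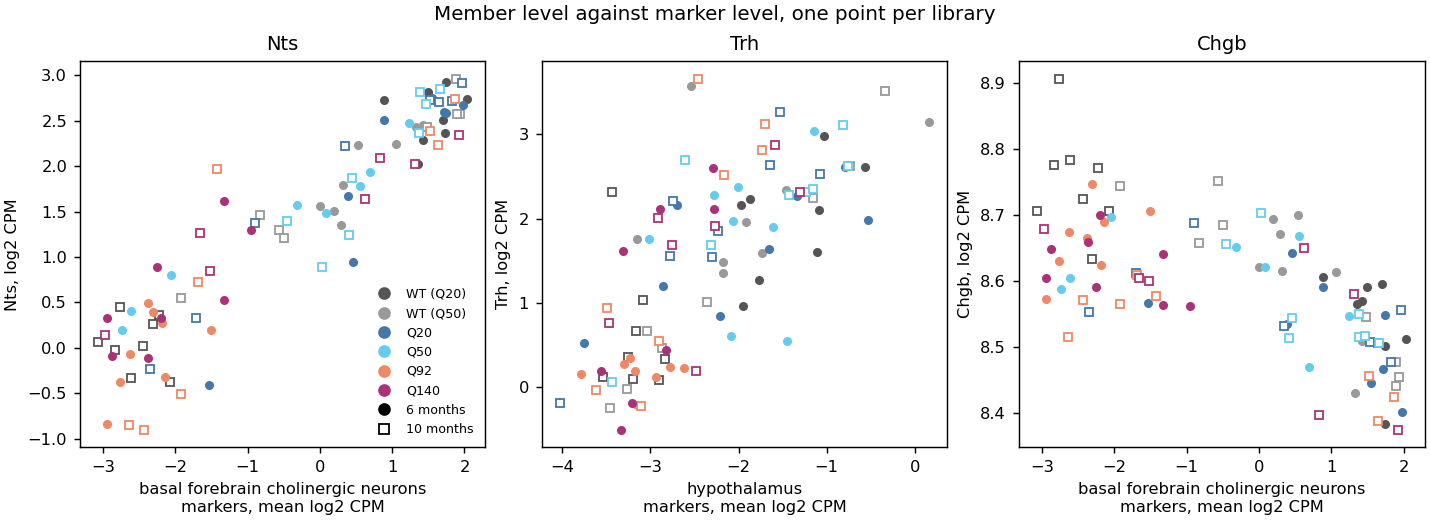
Log2 CPM of Nts, Trh and Chgb against the mean log2 CPM of marker genes, 1 point per library (filled circles 6 months, open squares 10 months, coloured by line). Nts climbs along the cholinergic markers (r = 0.93) and Chgb declines along them (r = -0.66), with 6-month Q92 libraries and 10-month wild types caged with Q20 mice at the low end of the marker axis.

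Members formed loose sets by their variation over the 95 libraries, which share line, age and depth. Nts went with Scg2 (Pearson 0.77, Spearman 0.79, 0.69 within groups) and with Trh (0.73, 0.72, 0.64), and Chga went with Vgf (0.69, 0.71, 0.61). Nts and Chgb ran opposite (-0.59, -0.63, -0.43). Each had a two-sided permutation p of 1e-05 by both measures, and without the 2 farthest libraries they were 0.76, 0.73, 0.69 and -0.59. Among 14667 genes of at least 1 CPM on average, the closest to Nts were Lhx8, a transcription factor gene of cholinergic neurons (r = 0.93), Zcchc12 (0.92) and Slc5a7, the choline transporter gene (0.92). Closest to Trh were Hap1, which encodes a huntingtin-associated protein (0.88), the orphan receptor gene Gpr101 (0.87) and Tmem255a (0.85). Scg2 was closest to Gad2, which makes GABA (0.89), and Peg10 (0.87). Chgb was closest to Nrn1, the neuritin gene (0.84), Syt13 (0.77) and Khdrbs3 (0.75), and Chga to Cltb, a clathrin light chain gene (0.85), Vstm2l (0.84) and Ppp2r5b (0.83). Vgf was closest to Cacnb1, a calcium channel subunit gene (0.90), Mast3 (0.89) and Tmem198 (0.88), and Pcsk1 to Kdm7a, a histone demethylase gene (0.88), and Zdhhc5 (0.84). The nearest genes of Tac2 (Pnoc, a peptide precursor gene, 0.70), Crh (Ndufb2, 0.63) and Adcyap1 (Lrrc4c, 0.53) were less close.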

How the data were processed

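Messenger RNA of mouse cerebral cortex was sequenced from total RNA extracted with a Qiagen miRNeasy kit, per the labels' protocols. CASAVA 1.8.2 is named in the submitters' processing notes. The sources used here give no aligner, counting tool, genome build, annotation or strand setting, so reads of overlapping or antisense genes cannot be told apart. The authors deposited estimated counts (67% of the values above 0 were exactly whole) and FPKM values per gene. The estimated counts were rounded, filtered with filterByExpr, scaled by TMM and tested with edgeR 4.0.16 (quasi-likelihood, R 4.3.3), with Benjamini-Hochberg adjustment over all genes at 0.05. Line and sex were terms of the fit at each age, and a fit of both ages gave the age comparisons. Every adjusted p of a difference or trend comes from this edgeR test unless DESeq2 1.42.0, limma 3.58.1 or an FPKM setting is named. The FPKM settings were limma fits to log2 of FPKM plus 0.1 or plus 1. They took genes with a mean of at least 0.5 FPKM. Adjusted p-values of correlations come from the permutations. Levels are TMM-scaled CPM, and deposited FPKM values were used to compare genes. Log2 CPM used a prior count of 1. Only some of the fits were tested on simulated data.

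The 10 members and all lists were chosen with earlier results of these data known. The other genes named are at most 4 called genes with the smallest p per list and comparison, and the 3 genes with the highest correlation to each member, some of which are not reported here. The L code is part of the library names in the labels, and its meaning is not stated. In most names a D number follows it. Libraries without a D number were pooled as 1 level of this factor, though their L codes differ. Alternatives were other tools, filters, pseudocounts, wild-type references, 1 sex, the L code, a replicate block and leaving out each library. Same-numbered libraries did not vary together (mean correlations between 0 and 0.04). Counts were lowest for Nts, Trh and Crh.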

Additional observations from a re-analysis of the deposited data

Results flagged for a closer look

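For each member the 12 groups of 1 line and age, both sexes together (7 or 8 libraries), were searched for a library far from its nearest neighbour on the log2 CPM scale. That made 120 checks, and chance marks about 1 in 20. The library that stood apart is named with its level in CPM. Trh was low in Q92_6mo_Female replicate 4 (0.8325) and Q50_10mo_Male replicate 1 (1.014) and high in WTwithQ20_10mo_Female replicate 2 (4.956). Tac2 was high in Q92_6mo_Male replicate 3 (6.897) and Q92_10mo_Female replicate 4 (12.08), and Crh in Q20_6mo_Female replicate 1 (4.47). Scg2 was low in WTwithQ20_6mo_Female replicate 2 (152.3), and Chgb in WTwithQ20_6mo_Male replicate 1 (334.1). Chga was high in WTwithQ50_10mo_Female replicate 4 (113.2). Vgf was high in Q50_6mo_Male replicate 4 (153.1) and low in Q92_10mo_Female replicate 1 (74.34). Pcsk1 was low in Q50_6mo_Female replicate 4 (10.53), a library above 13% mitochondrial counts, and in WTwithQ20_10mo_Male replicate 2 (21.75), and high in Q20_10mo_Male replicate 4 (35.95).

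The difference between groups itself changed with age, by a test of that change, in 8 cases. For Q92 mice against wild types the log2 change from 6 to 10 months was 2.795 for Nts, 3.038 for Trh, 0.424 for Scg2 and -0.251 for Chgb. For Q140 mice it was 2.166 for Nts. For wild types caged with Q20 mice against those caged with Q50 mice it was -2.611 for Nts, -0.369 for Scg2 and 0.218 for Chgb.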

How the results depend on the processing

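No member value called by edgeR changed sign under any alternative or with any library left out. Of 2146 member values under alternatives 76 lost and 18 gained a call, and of 10130 with 1 library left out 92 lost and 28 gained one. Counts of called members that moved by over 1.5 times are given from the main count to the alternative, and the cause was not tested.
Requiring a mean of 5 CPM, which leaves out Nts, Trh and Crh, gave 1 (from 3) for Q92 and 1 (from 2) for Q140 at 6 months, 0 (from 1) for Q140 at 10 months, 3 (from 5) for wild-type age, and 2 (from 4) and 0 (from 1) for the age changes of Q92 and Q140. Without a filter Q92 had 1 (from 2) and Q140 0 (from 1) at 10 months. With limma voom Q140 at 6 months had 4, Q92 at 10 months 1 and the 10-month wild-type groups 1 (from 3). FPKM plus 0.1 and plus 1 gave 1 and 0 for Q92 at 10 months. The L code gave 1 for Q20, 0 for Q92, 1 for the wild-type groups and 0 for sex (from 1) at 10 months, 0 for the 6-month trend (from 3), 0 for wild-type age and 0 for the Q140 age change. The replicate block gave 0 for Q140 at 10 months and 3 for wild-type age, with no other count moved this far, and the numbers do not pair the libraries. For wild-type age the L code and block fits compare the ages at 1 code or 1 replicate number only.
In females the counts were 0 for Q140 at 6 months, 0 for Q20, Q92, Q140 and the wild-type groups at 10 months, 0 for the 6-month trend, 2 for wild-type age, and 0 for the age changes of Q140 and of the wild-type groups. In males they were 0 for Q92, Q140 and the wild-type groups at 10 months, 1 and 2 (from 0) for the 6- and 10-month trends, 0 for wild-type age, and 0 for the age changes of Q92 and Q140. Against wild types caged with Q50 mice Q92 and Q140 had 0 at 10 months, and against those caged with Q20 mice Q140 had 3. With 1 library left out the counts ran from 3 to 4 for Q92 and 2 to 4 for Q140 at 6 months, 0 to 3 for Q20, 0 to 2 for Q92, 0 to 1 for Q140 and 1 to 3 for the wild-type groups at 10 months, and 0 to 2 for the Q140 age change.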

Other observations

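Other precursor genes also changed between ages in the comparison of Q92 mice with wild types, where 6 of 20 rose and 2 fell, beside 10.0% of all genes called. Tac1 changed by 1.76 ± 0.32 and Penk by 1.58 ± 0.30, and Vip, an interneuron gene, by -0.33 ± 0.081. In the comparison of the wild-type groups Penk changed by -1.84 ± 0.34 and Tac1 by -1.83 ± 0.36, and Vip by 0.47 ± 0.094. These comparisons share wild-type libraries.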
